A study of Mus musculus with 8 samples.

Results

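RNA recovered with AGO2 beads was compared with total RNA in glomerular mesangial cells of wild-type mice (WT MMC). AGO2 is the Argonaute protein that holds microRNAs in the silencing complex, so the question was which RNA classes and which functions were recovered in AGO2-IP beyond or below their share of total RNA. The samples were chosen by genotype and assay, and numbered 4 of the 8 in the series, 2 of WT total RNA and 2 of WT AGO2-IP, each with replicates A and B. Functions were described over the 9833 of 24639 gene rows with a mean of 100 or more counts in WT total RNA, called expressed genes here, of which 9832 could be tested.

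All 4 libraries came from primary MMC of WT C57BL/6J mice, and the cells were grown in serum-supplemented RPMI medium. The study's methods name no treatment of the cells or mice for these libraries. No allele, transgene or named treatment separated the groups. The MMC were grown out of sieved glomeruli that had been pooled and were used after passaging. For WT total RNA, a stranded poly(A) mRNA kit was used. For WT AGO2-IP, cells were cross-linked with ultraviolet light and sonicated, the lysate was passed over anti-mouse AGO2 beads, and the RNA, without the ligation step of the hybrid protocol, was sequenced by a small RNA procedure. Poly(A) selection, fragmentation, library type and AGO2 recovery thus changed together between the groups and cannot be told apart. The study calls A and B independent samples, and where they do not come from separate animals the p-values below measure only the spread between cultures.

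An Argonaute protein loaded with a microRNA pairs through the microRNA's seed, bases 2 to 8, mostly with sites in the 3′-UTR of mRNAs, and GW182 proteins then bring deadenylases and decapping factors to the bound mRNA. Small nucleolar RNAs (snoRNAs) are a separate nuclear class. C/D box snoRNAs guide ribose methylation of ribosomal RNA and H/ACA box snoRNAs guide pseudouridylation, while the related scaRNAs act on spliceosomal RNAs in Cajal bodies. RNase MRP and RNase P are ribozymes that process ribosomal RNA and transfer RNA precursors. Mesangial cells hold the glomerular capillaries together and secrete a matrix rich in collagens, laminins and fibronectin.

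Shown here are snoRNAs with the most counts in WT AGO2-IP of each box class, because they held most of the C/D box and a large part of the H/ACA box counts there. Snora74a ranked between Snora64 and Snora23 and its sequence is not printed. Each line gives the last 30 bases, 5′ to 3′, read from the RefSeq sequence of GRCm38.p6. Capitals mark the D box CTGA in the C/D box snoRNAs and the ACA trinucleotide that lies 3 bases from the 3′ end in the H/ACA box snoRNAs.
Snord22: ctttgttccagaaggaactgtCTGAgggat
Snord15b: gattgatttagaggcatttgtCTGAgaagg
Snord15a: agatgaccaagaggcatttgtCTGAgaagg
Snord17: tctcaccaagatgagtggtgcaaatCTGAt
Snora70: gggctgcctcaagggaccttggagACAatt
Snora64: gcctctcttgcctagaggagcaccACAggt
Snora23: actggccagcctccaaattcccagACAcaa
Searched on the annotated strand, CTGA lay in the last 30 bases of 98.6% of the 70 C/D box rows that have a sequence and of 13.9% of the 36 H/ACA box rows. The terminal ACA was found in 69.4% of H/ACA box rows and in 1.43% of C/D box rows. Snord22 lies at chr19:8725866-8725991 on the plus strand. On the minus strand lie Snord15b at chr7:99479563-99479707, Snord15a at chr7:99482785-99482932 and Snord17 at chr2:144265982-144266202. Snora70 at chrX:74272492-74272620, Snora64 at chr17:24720789-24720905 and Snora23 at chr7:110046364-110046547 are on the plus strand.

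Depth differed between the assays. The row of the ribosomal RNA precursor, Rn45s, took 80.5% and 74.5% of gene counts in WT AGO2-IP A and B, against 9.26% and 4.52% in WT total RNA, and Lars2 took 8.49% and 8.74% against 0.312% and 0.153%. Outside these rows the totals were 15524103 and 16583551 counts in WT total RNA A and B, against 1874974 and 1605578 in WT AGO2-IP A and B, so that low genes are less precisely measured in AGO2-IP. Across the expressed genes, Pearson's r of log2 CPM (counts scaled to the library total) was 0.929 between the WT total RNA replicates. It was 0.954 between those of WT AGO2-IP, and genes are not independent replicates. For the log2 ratio of AGO2-IP over total RNA, taken between libraries of like letter, r of A and B was lower, at 0.669. Of the mesangial and pericyte markers, Acta2, Pdgfrb, Des and Cspg4 had over 1000 counts in both WT total RNA libraries. Itga8 had 38 and 7 and Thy1 had 1 and 2. The total RNA libraries A and B differed in Des, with 1801 and 14442 counts, and in the tubule marker Lrp2, with 24 and 472. The podocyte markers Synpo and Wt1 were also present, with 8652 and 3561 and with 1566 and 527 counts, while Nphs1 had 4 and 1.

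Small structured RNAs had the largest ratios of AGO2-IP share to total RNA share of all classes. RNase P and RNase MRP RNA together took 4.67e-05% ± 2.23e-06 (SD, n = 2) of the counts in WT total RNA and 3.50% ± 0.761 in WT AGO2-IP. C/D box snoRNAs took 0.000895% ± 8.16e-05 in WT total RNA and 2.26% ± 1.04 in WT AGO2-IP, and H/ACA box snoRNAs took 0.000923% ± 0.000212 and 0.672% ± 0.364. The groups did not overlap in any of these classes, but neither did they in any other RNA class, so this is not particular to small RNAs. The AGO2-IP libraries differed from each other, with 0.929% in A and 0.415% in B for H/ACA box snoRNAs. With 2 libraries a group, an exact permutation test on shares cannot pass a threshold of 0.05, so these shares are given without a test.

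**Figure D1:**
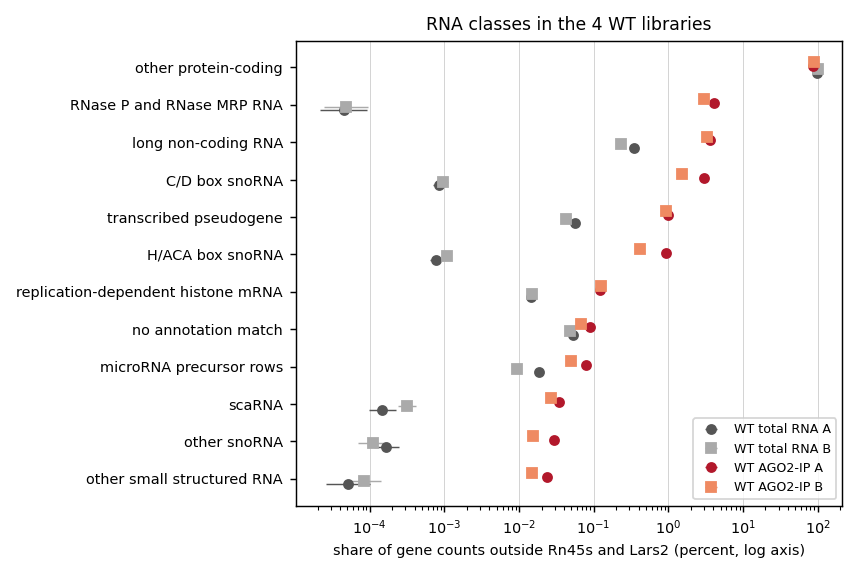
Share of gene counts, outside Rn45s and Lars2, taken by each RNA class (percent, log axis) in the 4 WT libraries, with 95% Wilson intervals that cover counting error only. C/D box snoRNAs took 0.000895% of counts on average in total RNA and 2.26% in AGO2-IP, and mRNAs other than those of replication-dependent histones took 99.6% and 88.8%.

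Rmrp, the RNA of RNase MRP, had 6 and 6 counts in WT total RNA A and B and 51444 and 33046 in WT AGO2-IP A and B, a log2 fold change of 15.96 ± 0.75 (SE; edgeR quasi-likelihood test, adjusted p = 3.64e-09). Rpph1, the RNA of RNase P, had 1 and 2 counts in total RNA and 24349 and 14585 in AGO2-IP. The ratio of its summed counts, scaled to the totals, was 119720 with a 95% exact interval of 40963 to 580561 that covers counting error only. Neither RNA carries a poly(A) tail. Both rows passed the expression filter through their AGO2-IP counts alone, so they had to differ and the p-value is no test.

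Snord22 had 19 and 19 counts in WT total RNA and 23366 and 9514 in WT AGO2-IP (log2 fold change 12.94 ± 0.71, adjusted p = 4.37e-09). Snord15b went from 1 and 0 counts to 20267 and 10449, Snord15a from 1 and 1 to 7308 and 2935, and Snord17 from 0 and 3 to 4894 and 1421. Among H/ACA box snoRNAs, Snora70 had 10 and 10 counts in total RNA and 4179 and 1631 in AGO2-IP, and Snora64 had 5 and 11 and then 3681 and 1290. Snora74a, with 1 and 1 counts in total RNA, reached 1177 and 505 counts in AGO2-IP and Snora23, with 3 and 4, reached 1029 and 295. In every one of these rows the AGO2-IP libraries lay far above the total RNA libraries. Of the rows that could be tested, 13 of 14 C/D box, 29 of 30 H/ACA box and 7 of 7 scaRNA rows were called higher and none lower, beside 16.7% called higher and 12.1% called lower over all 13482 genes tested. Called means an adjusted p under 0.05 and a change of at least 2-fold. Rows that passed the filter through their AGO2-IP counts alone, Snord22 among them, had to differ. These counts and the p-value of Snord22 thus describe the rows and are no test of a row or of the class.

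C/D box recovery was concentrated in the 4 rows of greatest annotated length. Snord22, Snord15b, Snord15a and Snord17 held 99.2% of the counts of all 76 C/D box rows in WT AGO2-IP. Among the 70 C/D box rows that have a sequence, they are the 4 of 100 or more bases. Those 4 had between 6315 and 32880 summed AGO2-IP counts. The 66 rows under 100 bases had a median of 2 summed counts and at most 352. H/ACA box snoRNAs, of which 32 of 36 rows have 100 or more bases, were spread more evenly, with 57.3% of the counts in the 4 leading rows.

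**Figure D2:**
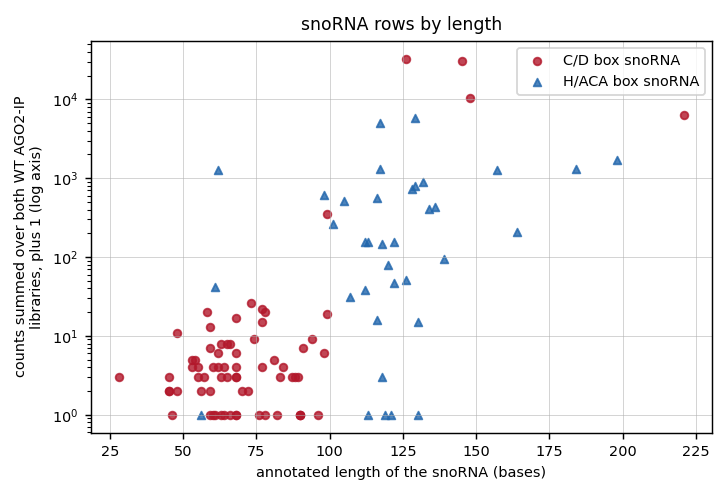
Counts of each snoRNA row summed over both WT AGO2-IP libraries, plus 1 (log axis), against the annotated length in bases. The 66 C/D box rows under 100 bases reach 352 counts at most, and the 4 longer ones lie between 6315 and 32880.

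The other small RNAs moved the same way at lower counts. The scaRNAs Scarna10 and Scarna2 had 0 counts in both total RNA libraries and 290 and 167, and 144 and 135, in AGO2-IP. Against a floor of 3 counts over the group they were at least 1405-fold and 858-fold higher. Scarna13 had 1 and 0 counts and then 75 and 55, and Scarna6 had 0 and 3 and then 81 and 38. Rnu12 and Rnu11 are RNAs of the minor spliceosome, which removes a rare class of introns. Rnu12 had 0 and 1 counts in total RNA and 166 and 122 in AGO2-IP, and Rnu11 had 0 and 0 and then 79 and 44, at least 378-fold higher. Vaultrc5, a vault RNA, had 0 and 0 counts and then 165 and 52. Terc, the template RNA of telomerase, had 1 and 2 counts in total RNA and 11 and 13 in AGO2-IP, a count ratio of 73.8 with an exact interval of 22.4 to 383.

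Rows of microRNA precursors took little of the AGO2-IP libraries. All 1205 rows together had 1497 and 804 counts in WT AGO2-IP, a share of 0.0650% ± 0.0210, and 2857 and 1567 counts in WT total RNA, a share of 0.0139% ± 0.00633. In AGO2-IP 759 rows had no count and 16 had 10 or more summed over the libraries. Mir1949 alone gave 41.4% of them, with 694 and 259 counts in AGO2-IP against 1 and 3 in total RNA. Mir6516 had 125 and 84 against 2 and 1, Mir3068 had 19 and 18 against 0 and 0, and Mir145a had 21 and 16 against 4 and 0. In total RNA, by contrast, Mir6236, Mir6240 and Mir703 gave 2662 of the 2857 counts of library A and 1382 of the 1567 of library B, and in AGO2-IP they had 2 and 0. These are counts of precursor rows, and mature microRNAs were not counted apart from them.

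Replication-dependent histone mRNAs, which end in a stem-loop and not a poly(A) tail, took 0.0148% ± 0.000432 of the counts in WT total RNA and 0.123% ± 0.00443 in WT AGO2-IP, and 47 of 51 tested rows were called higher, beside 16.7% of all genes tested. Only 4 of the histone rows counted as expressed in total RNA, so most passed the filter through AGO2-IP and had to differ. Hist1h4d and Hist1h1e were among these, and the p-value of Hist1h1e below is no test. Hist1h4d had 0 and 1 counts in total RNA and 179 and 131 in AGO2-IP. Hist1h1e had 20 and 17 and then 121 and 104 (log2 fold change 5.84 ± 0.37, adjusted p = 1.97e-08), and Hist1h1d had 26 and 22 and then 103 and 99 (5.32 ± 0.37, adjusted p = 4.72e-08). Hist1h1c, a linker histone row with 852 and 1259 counts in total RNA, had 161 and 172 in AGO2-IP and a log2 fold change of 0.61 ± 0.30 that did not pass (adjusted p = 0.132). None of the 4 histone rows expressed in total RNA was called, and their median log2 fold change was −0.02.

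Longer non-coding transcripts took a larger share as well. Long non-coding RNAs took 0.289% ± 0.0814 of the counts in WT total RNA and 3.48% ± 0.214 in WT AGO2-IP, and transcribed pseudogenes took 0.0496% ± 0.0104 and 0.954% ± 0.0335. Most of the pseudogene counts in AGO2-IP were those of Mrgpra6, with 14115 of 18331 in A and 12110 of 14936 in B. The 15 expressed pseudogenes had a median log2 fold change of −0.00, and 4 were called higher and 3 lower. Much of the long non-coding share in AGO2-IP came from Malat1, with 42084 of 68100 counts in A and 31620 of 53450 in B. Neat1 added 6772 and 8986, and both are nuclear transcripts. The 7 expressed members of a list of nuclear long non-coding RNAs took 0.140% and 0.0683% of total RNA counts and 2.75% and 2.65% of AGO2-IP counts. Of 63 long non-coding RNAs that counted as expressed, 18 were higher and 1 lower by the same call, and the median was 0.09. Over all expressed genes 4.45% were called higher and 16.5% lower.

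Among expressed genes, more were under-recovered than over-recovered. Of the 9832 tested, 438 were called higher in WT AGO2-IP (4.45%) and 1624 lower (16.5%), and in all of the called genes the replicates of the groups did not overlap, as in 6525 of the 9832. The median log2 fold change was −0.33, with the middle 50% of genes between −0.85 and 0.20. This split depended on the scaling. With TMM factors computed from the expressed genes alone, the median moved to −0.03 and 849 genes were called higher and 724 lower. Medians of function lists below are to be read against the median of expressed genes. Their calls keep the factors from all tested genes unless stated. With the factors from expressed genes, calls lower went from 61 to 42 for cytosolic ribosomal proteins and from 31 to 19 for proteasome subunits. They went from 46 to 26 for the respiratory chain and from 38 to 16 for mitochondrial ribosomal proteins. Collagens called higher went from 12 to 15. Without WT AGO2-IP replicate A, 56 expressed genes were called higher and 15 lower, and without replicate B 81 and 82. Without WT total RNA replicate A the counts were 1091 and 1811 and without replicate B 584 and 686. In these fits the lone library was assumed to vary like the other group. Genes just inside the level of 100 counts had a median log2 fold change of 0.22 and genes just outside 0.35, over 99 and 100 tested genes.

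**Figure D3:**
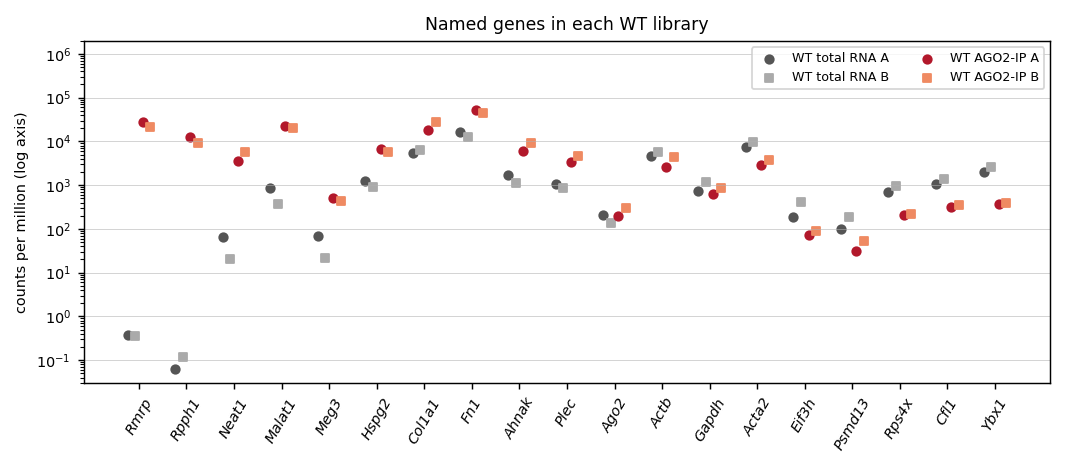
TMM-normalized CPM (log axis) of named genes in each of the 4 WT libraries. Rmrp, Rpph1, Neat1, Malat1, Meg3, Hspg2, Col1a1, Fn1, Ahnak and Plec lie higher in both AGO2-IP libraries, Ago2 overlaps between the groups, and Actb, Eif3h, Psmd13, Rps4x, Cfl1 and Ybx1 lie lower, of which Actb was not called.

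Nuclear RNAs were prominent among the over-recovered expressed genes, below the pseudogene Mrgpra6 described next. Neat1, the scaffold of paraspeckles, had 1044 and 349 counts in WT total RNA and 6772 and 8986 in WT AGO2-IP, a log2 fold change of 6.75 ± 0.67 (adjusted p = 3.72e-05). Malat1, which resides in nuclear speckles, had 13350 and 6367 counts and then 42084 and 31620 (5.12 ± 0.54, adjusted p = 7.01e-06). Kcnq1ot1, the antisense RNA of an imprinted cluster, had 465 and 257 counts and then 868 and 487 (4.11 ± 0.41). Meg3, the maternally expressed RNA of the imprinted locus that also holds the miR-379 cluster, had 1086 and 373 counts and then 941 and 671 (3.35 ± 0.52, adjusted p = 0.00125). From the same locus, Mirg had 34 and 38 counts and then 39 and 28 (3.13 ± 0.43, called higher), and Rian had 2556 and 2052 and then 544 and 428 (0.99 ± 0.32), which did not reach 2-fold. Of the 7 expressed members of this list 5 were called higher and none lower, beside 4.45% and 16.5% of expressed genes. Rian was among those not called. When GC content and transcript length were modelled as an offset, Kcnq1ot1 lost its call, at 0.04.

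The rest of the 12 most over-recovered expressed genes were of mixed kinds. Mrgpra6, annotated as a transcribed pseudogene of the Mas-related receptor family, had 935 and 642 counts in total RNA and 14115 and 12110 in AGO2-IP (7.30 ± 0.53, adjusted p = 9.03e-08), the largest increase of any expressed gene. Tyms, thymidylate synthase, had 369 and 679 counts and then 1124 and 598 (3.95 ± 0.40). The non-coding Carmn had 153 and 63 counts and then 216 and 114 (3.81 ± 0.48), and A630089N07Rik had 142 and 65 and then 152 and 169 (3.88 ± 0.41). Cmah had 122 and 187 counts and then 131 and 173 (3.26 ± 0.34). Cenpc1, a centromere protein, had 626 and 470 counts and then 598 and 378 (3.05 ± 0.34). The DNA repair genes Rad1 and Dclre1c had log2 fold changes of 2.87 ± 0.31 and 2.83 ± 0.32. The exons of Dclre1c overlap those of Suv39h2 on the other strand, and no annotated exon of another row overlapped those of Mrgpra6 or Tyms.

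Several rows of microRNA precursors and of other kinds led the under-recovered genes. The Bc1 row on chromosome X, named for a short brain cytoplasmic RNA, had 1600 and 2584 counts in total RNA and 2 and 0 in AGO2-IP, a scaled count ratio of 227 with an exact interval of 62.7 to 1873. Mir6236 had 1912 and 964 counts and then 1 and 0, Mir6240 had 597 and 269 and then 1 and 0, and Gm20594 had 425 and 500 and then 0 and 2. Mir703 had 153 and 149 counts and then none, so it was at least 10.9-fold lower. Their AGO2-IP counts were at or near 0 in both libraries.

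After these rows, the called gene with the lowest value was Ybx1, which encodes a major mRNA-packaging protein. It had 31413 and 43216 counts in WT total RNA and 709 and 617 in WT AGO2-IP, a log2 fold change of −2.55 ± 0.39 (adjusted p = 0.000179). Atp6v0e2, a subunit of the vacuolar proton pump, had 507 and 780 counts and then 11 and 14 (−2.41 ± 0.38), and Ak6 had 292 and 364 and then 5 and 7 (−2.50 ± 0.45). At still lower AGO2-IP counts, Stmn4 had 54 and 174 and then 2 and 2, Gng11 had 193 and 167 and then 5 and 2, Smim11 had 140 and 164 and then 1 and 5, and Rps4l had 116 and 206 and then 5 and 1. Ak6 shares exon sequence with Taf9 on the same strand, so reads in the shared stretches could be missing from its count.

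Functions separated around the median of expressed genes. Of 42 lists of genes by function, 21 lay below that median in both replicates and 17 above it in both, and 33 stayed on one side in all 18 settings. The 9 that did not included the Hox genes and the Argonaute machinery. Settings that mainly rescale the libraries, such as RLE factors, shift lists and median alike. They could hardly move a list across that median and so add little to this count. Calls in each list are to be read beside the 4.45% of expressed genes called higher and the 16.5% called lower. The lists that lay lowest encode the machinery that makes, folds and degrades cytosolic proteins and respires, and those that lay highest encode nuclear non-coding RNAs, the extracellular matrix and giant linker proteins.

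**Figure D4:**
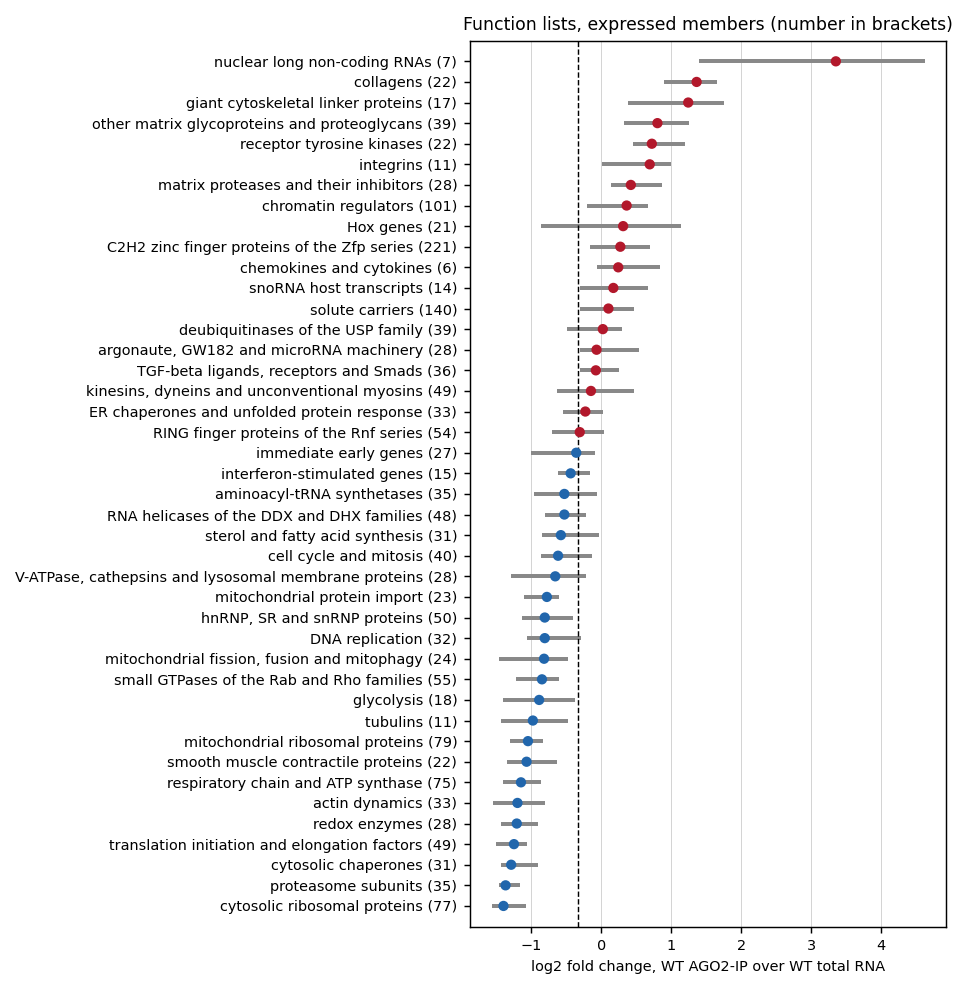
Log2 fold change of WT AGO2-IP over WT total RNA for the expressed members of 42 function lists, with the number of members in brackets. Points are medians, bars span the middle 50% of members, and the dashed line is the median of all expressed genes at −0.33. Cytosolic ribosomal proteins lie lowest at −1.40 and nuclear long non-coding RNAs highest at 3.35.

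Cytosolic ribosomal protein mRNAs took 3.05% and 5.17% of the counts in WT total RNA A and B and 1.52% and 1.60% in WT AGO2-IP. Of 77 members none was called higher and 61 were called lower, beside 4.45% and 16.5% of expressed genes, and the median log2 fold change was −1.40. Rps4x, on the X chromosome, had 10907 and 16571 counts and then 389 and 340 (−1.97 ± 0.37, adjusted p = 0.000926). At the other end Rps23 had 1315 and 2324 counts and then 308 and 314, a log2 fold change of 0.73 ± 0.33 that did not pass, and Rpl37 had 2007 and 3427 and then 197 and 280 (−0.21 ± 0.35). Many ribosomal protein genes have processed copies in the genome, so their counts are uncertain where reads could not be placed. Relative to expressed genes the median lay at −1.07, and between −1.41 and −0.59 without 1 of the libraries. With GC content and length modelled it lay at −0.30, and 1 member was called higher and 8 lower.

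Translation factors moved alongside, with 38 of 49 called lower and a median of −1.25. Eif3h and Eif3m, subunits of the initiation factor that binds the small ribosomal subunit, had log2 fold changes of −1.89 ± 0.39 and −1.62 ± 0.30. Eif4g3, a scaffold of the cap-binding complex, had 3534 and 2637 counts and then 489 and 450 (0.53 ± 0.33), which did not pass. Proteasome subunits had 31 of 35 members called lower and a median of −1.37, with none of the 35 above the median of expressed genes. With the GC and length offset, 23 translation factors and 5 proteasome subunits were called lower, and the proteasome median relative to expressed genes went from −1.04 to −0.47. Psmd13 had 1544 and 3129 counts and then 59 and 82 (−1.75 ± 0.38), Psmd10 had 313 and 384 and then 12 and 11 (−1.66 ± 0.38), and Psmd11 had a change of −0.63 ± 0.31 that did not pass. Among cytosolic chaperones 21 of 31 were called lower, and 11 with the offset. The small heat shock proteins Cryab and Hspb8 were among them, at −2.05 ± 0.36 and −2.04 ± 0.31.

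Mitochondrial functions encoded in the nucleus lay low too. Of 75 respiratory chain and ATP synthase mRNAs 46 were called lower, with a median of −1.15, and of 79 mitochondrial ribosomal protein mRNAs 38 were called lower, with a median of −1.05. Ndufb11 and Ndufb8, subunits of complex I, had log2 fold changes of −1.76 ± 0.34 and −1.70 ± 0.41, and Cox7c of complex IV had 0.75 ± 0.31, which did not pass. Mrps6 had 575 and 846 counts and then 10 and 22 (−2.18 ± 0.41), and Mrpl20 had −1.69 ± 0.38. With the GC and length offset each list lay at −0.17 relative to the expressed genes, and 2 respiratory chain members and 8 mitochondrial ribosomal members were called lower. Redox enzymes had 15 of 28 members called lower and a median of −1.21, and 4 were called lower with the offset. Txn1, thioredoxin, had 3138 and 3614 counts and then 131 and 170 (−1.21 ± 0.32, adjusted p = 0.0107). Fis1, a receptor of mitochondrial fission, had 763 and 1216 counts and then 38 and 36 (−1.47 ± 0.32, adjusted p = 0.00315). With that offset the changes were −0.48 for Txn1 and −0.67 for Fis1, and neither was called. Edem3, which trims mannose from misfolded glycoproteins in the endoplasmic reticulum, had 1826 and 962 counts and then 236 and 203 (0.57 ± 0.34, adjusted p = 0.218).

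Genes of the cytoskeleton lay on both sides of the median. Of 33 actin dynamics genes 20 were called lower, with a median of −1.20. The actin-severing proteins destrin (Dstn) and cofilin (Cfl1) had log2 fold changes of −2.01 ± 0.37 and −1.88 ± 0.37. Among smooth muscle contractile genes, which mark activated mesangial cells, 11 of 22 were called lower. Tagln had 67373 and 90759 counts and then 2629 and 2773 (−1.60 ± 0.40), Tpm3 had −1.69 ± 0.35, and Acta2 had 115436 and 166088 and then 5550 and 5722 (−1.37 ± 0.41, adjusted p = 0.0187). Flna, the actin crosslinker filamin A and a long mRNA, had 85068 and 99945 and then 14342 and 11655 (0.42 ± 0.39), which did not pass. Tubb3 (−1.85 ± 0.31) was among the 5 of 11 tubulins called lower. The lactate dehydrogenases Ldhb (−2.37 ± 0.48) and Ldha (−1.78 ± 0.39) were among 8 of 18 glycolysis genes called lower. With the GC and length offset, 13 actin dynamics genes, 6 smooth muscle genes, 3 tubulins and 2 glycolysis genes were called lower. The common reference genes did not pass the test, with Actb at −0.56 ± 0.41 and Gapdh at −0.38 ± 0.38.

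Giant cytoskeletal linkers went the other way, with 11 of 17 called higher, none lower and a median of 1.24. Ahnak had 27120 and 18832 counts in total RNA and 11435 and 14176 in AGO2-IP (2.42 ± 0.44, adjusted p = 0.000768). Plec, plectin, had 16827 and 14332 and then 6530 and 7301 (2.09 ± 0.40). The list has a median exon length of 12382 bases against 3300 for expressed genes. With the GC and length offset its median relative to expressed genes fell from 1.57 to 0.22, and none was called, so that Ahnak stood at 0.87 and Plec at 0.46.

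Matrix genes were over-recovered, with fewer calls under the offset. Collagens took 2.36% and 1.77% of counts in WT total RNA and 5.68% and 5.78% in WT AGO2-IP. Of 22 collagen genes 12 were called higher and none lower, the median was 1.36, and all 22 lay above the median of expressed genes. Col1a1, the main chain of fibrillar collagen I, had 84165 and 105742 counts and then 34778 and 41962 (1.97 ± 0.44, adjusted p = 0.00339). Col7a1 had 289 and 204 counts and then 163 and 83 (2.21 ± 0.33). Col4a1, a chain of basement membrane collagen, had 99189 and 68328 and then 21885 and 15612 (1.07 ± 0.42, adjusted p = 0.0609), and Col18a1 had 1028 and 3509 and then 168 and 200 (−0.32 ± 0.54), and neither passed. Relative to expressed genes the collagens lay at 1.69, at 1.25 with GC content and length modelled, where 9 were called higher, and between 1.39 and 1.76 without 1 of the libraries.

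Other matrix glycoproteins and proteoglycans took 5.18% and 4.13% of total RNA counts and 10.5% and 10.4% of AGO2-IP counts, and 13 of 39 were called higher and none lower, or 7 higher with the offset. Hspg2, the basement membrane proteoglycan perlecan, had 19413 and 15525 counts and then 12417 and 8950 (2.52 ± 0.41, adjusted p = 0.00033). Lama5, a laminin chain, had 8664 and 5604 and then 3928 and 2720 (2.12 ± 0.40). Fn1, fibronectin, had 260391 and 218520 and then 97469 and 70352 (1.72 ± 0.44, adjusted p = 0.00801). Mgp, a short secreted matrix protein, had 7744 and 3648 counts and then 302 and 408 (−0.74 ± 0.42), which did not pass. Matrix proteases had 4 of 28 called higher, among them Adamts6 (2.23 ± 0.38) and Adamts10 (1.56 ± 0.34), and all 28 lay above the median of expressed genes.

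Surface receptors and nuclear regulators lay above the median with fewer calls. Of 22 receptor tyrosine kinases 6 were called higher and 1 lower. The Eph receptors Ephb3 and Epha4 had log2 fold changes of 1.43 ± 0.30 and 1.36 ± 0.43, and Ryk, a Wnt co-receptor, had 3808 and 3894 counts and then 191 and 208 and was the 1 called lower. Itga2 (1.65 ± 0.47) was the 1 called of 11 integrins. Chromatin regulators had a median of 0.36, and 12.9% of them were called higher and 3.96% lower, against 4.45% and 16.5% of expressed genes. With the GC and length offset their median relative to expressed genes went from 0.69 to 0.17, and 4 were called higher and 3 lower. Kmt2d, a histone methyltransferase, had 1976 and 1331 counts and then 982 and 945 (2.47 ± 0.37), Crebbp, an acetyltransferase, had 1.86 ± 0.32, and Smarce1, a small remodeller subunit, had −1.36 ± 0.31. Hox genes had 6 of 21 called higher and 2 lower, with Hoxc5 at 2.53 ± 0.40 and Hoxc4 at 1.41 ± 0.36 among the former. Of 221 zinc finger genes of the Zfp series 14 were called higher and 2 lower, and the 6.33% called higher is near the 4.45% of expressed genes. Zfp937 (1.77 ± 0.31) and Zfp277 (1.73 ± 0.31) were among the 14, and 186 of the list lay above the median of expressed genes. With the offset 6 were called higher and 4 lower.

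The genes of the silencing machinery itself lay somewhat above the median of expressed genes. Of 28 genes for Argonautes, GW182 proteins, microRNA processing and deadenylation, 4 were called higher and none lower, beside 4.45% and 16.5% of expressed genes. The median was −0.07, and 22 of the 28 lay above the median of expressed genes. Relative to that median the list lay at 0.26. With the GC and length offset it lay at −0.01, and 3 were called higher and 1 lower. Ago2 had 3197 and 2285 counts in total RNA and 371 and 455 in AGO2-IP (0.54 ± 0.34, adjusted p = 0.242). Ago3 (1.61 ± 0.33) and the deadenylase subunit gene Pan3 (1.24 ± 0.32) were called higher. Tgfb1, the cytokine that drives matrix synthesis in mesangial cells, had 2229 and 2086 and then 278 and 272 (0.29 ± 0.30). Gas5, a snoRNA host transcript, had 1247 and 1225 and then 257 and 192 (0.78 ± 0.29, adjusted p = 0.0473), short of 2-fold.

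Recovery followed transcript length, and coding length most closely. Across 9735 expressed genes with a coding sequence, Spearman's rho of the log2 fold change was 0.59 with coding length, against 0.55 with exon length and 0.26 with the length of the 3′-UTR. It was −0.03 with GC content. The genes share the 4 libraries, so no p-value is attached. Over 4 equal bins, the median log2 fold change went from −0.91 for the shortest coding sequences to −0.49, −0.16 and 0.24. In the shortest bin 0.616% of genes were called higher and 38.3% lower, and in the longest 12.2% and 1.15%. Within the shortest coding bin, genes of the lowest and highest bin of 3′-UTR length had medians of −1.06 and −0.76, and within the longest they had 0.10 and 0.38. A longer 3′-UTR thus went with a higher value at like coding length, by less than coding length itself.

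**Figure D5:**
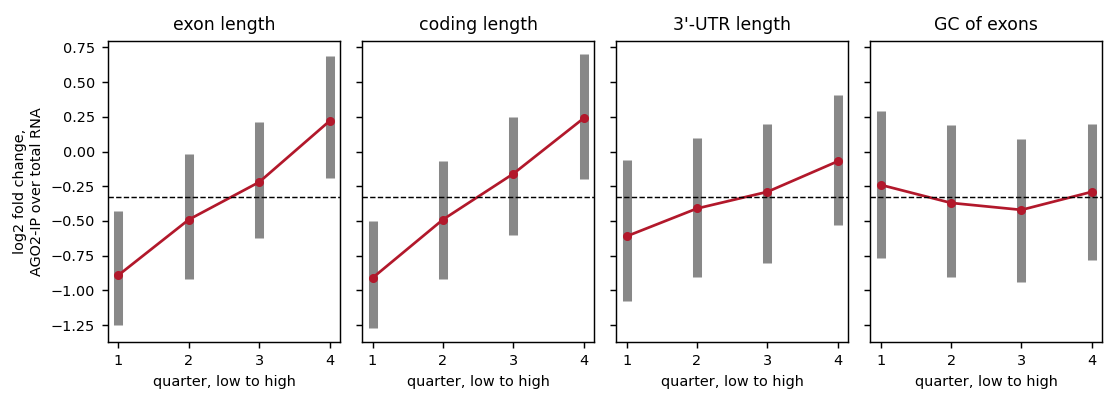
Log2 fold change of WT AGO2-IP over WT total RNA of expressed genes in 4 equal bins of exon length, coding length, 3′-UTR length and GC content. Points are medians, bars span the middle 50% of genes, and the dashed line is the median of expressed genes. The medians rise from −0.91 to 0.24 over bins of coding length and vary between −0.42 and −0.24 over bins of GC content.

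Expression level moved with these values, and AGO2-IP held counts over genes silent in total RNA. Counted first were 7923 protein-coding genes with at most 5 counts in each WT total RNA library. Their exons did not overlap, on the other strand, at least 50 bases of a gene with a mean of 1000 or more counts. Over these genes the AGO2-IP libraries had 1.51 and 0.967 counts per kilobase of exon, and 6450 and 5471 of them had a count. At this rate such counts would make up 3.01% of the AGO2-IP counts of expressed genes. The median log2 fold change was 0.00 for genes with a mean of 100 to 300 counts, −0.33 for 300 to 1000 and −0.57 for 1000 and over, whereas rho with coding length rose from 0.59 to 0.64 and 0.67. With that rate subtracted from each gene, an alternative chosen after seeing the data, rho over expressed genes was 0.58, and all 42 lists kept their side of the median. The subtraction moved the median of the genes with 100 to 300 counts from −0.01 to −0.32, on ratios of pooled counts, and their rho from 0.59 to 0.50. Of the silent genes, the 44 whose exons overlap at least 50 bases of a gene with a mean of 1000 or more counts on the other strand had 2.61 AGO2-IP counts per kilobase, and those without such overlap had 2.48. The 5 endothelial markers, of which 2 were at 0 in total RNA, summed to 0.580 and 0.422 CPM in total RNA and 22.4 and 12.5 CPM in AGO2-IP.

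Matches to microRNA seeds went with small differences. For 16 of 18 listed mature microRNAs a sequence was found in RefSeq, and the presence of the reverse complement of bases 2 to 8 in the longest 3′-UTR was set against the log2 fold change of 9711 expressed genes. The microRNAs with the largest difference, and miR-379, which the study deleted in its other genotype, are shown with the seed in capitals.
mmu-let-7a-5p: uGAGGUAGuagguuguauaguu
mmu-miR-21a-5p: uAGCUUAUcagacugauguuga
mmu-miR-29a-3p: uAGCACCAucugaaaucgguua
mmu-miR-379-5p: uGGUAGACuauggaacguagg
Genes with a let-7a match numbered 943 and had a median of −0.07, against −0.37 in the 8768 genes without. Averaged within 4 equal bins of 3′-UTR length the difference was 0.19, and it was positive in all 4 bins. For miR-21a the averaged difference was 0.15 and for miR-29a 0.15, each positive in all 4 bins. For miR-379 it was −0.02, between −0.23 and 0.17 over the bins, with 461 genes holding a match. The others lay between −0.03 and 0.13. With the GC and length offset the averaged differences were 0.15 for let-7a, 0.05 for miR-21a, 0.12 for miR-29a and −0.01 for miR-379. Matches were searched on the transcript strand, and a match is a description and not a bound site.

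The miR-379KO libraries, which entered the values above only in the alternative with all 8 libraries, were fitted alone on the same lists. In them 9982 expressed genes had a median log2 fold change of −0.59 between miR-379KO AGO2-IP and miR-379KO total RNA, and 39 of the 42 lists lay on the same side of the median as in WT. Relative to that median, cytosolic ribosomal proteins lay at −1.68 (−1.07 in WT), proteasome subunits at −1.47 (−1.04), collagens at 1.32 (1.69) and nuclear long non-coding RNAs at 3.68 (3.69). Immediate early genes lay at −1.16 against −0.03 in WT, where the list ranged from −0.47 to 0.52 when 1 library was left out. The difference between the genotypes was not tested here.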

How the data were processed

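RNA was measured in 8 libraries, of which the 4 WT libraries were compared. The authors deposited raw counts per RefSeq gene and library. The submitters' processing notes name TopHat, Bowtie2 2.1.0.1, HTSeq 0.6.0 and the mm10 build, and the study's methods state strand-specific counting for total RNA and the same approach for paired-end AGO2-IP reads. Summary rows and rows with no gene name, at most 0.000788% of gene counts, were dropped, and Rn45s and Lars2 were left out of totals and tests. Groups came from the sample labels. edgeR 4.0.16 in R 4.3.3 was used with TMM factors, the default expression filter and the robust quasi-likelihood F test, with Benjamini-Hochberg adjustment over 13482 genes. All adjusted p-values above come from that fit. Genes were called at an adjusted p under 0.05 and a change of at least 2-fold. The script was tested on simulated data.

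Annotation, transcript lengths, GC content and sequences came from RefSeq for GRCm38.p6, in which 23602 rows matched by symbol, 701 by synonym and 316 not. Log2 fold changes are WT AGO2-IP over WT total RNA with the edgeR prior. The genes named were the 4 rows with the most AGO2-IP counts in each small class, the 12 with the largest change in each direction among called expressed genes, the 2 highest and 2 lowest of each list, and a set of fixed genes, of which those that the text has room for were printed. The samples, the level and the lists were chosen with earlier results of these data known. Alternatives were DESeq2 1.42.0, RLE factors, no factors, TMM from expressed genes, other filters and levels, a lowess offset for GC content and length, a replicate block, all 8 libraries and each library left out. Intervals cover counting error only.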

Additional observations from a re-analysis of the deposited data

How the results depend on the processing

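Calls depended on the scaling, the filter and single libraries. Against 2251 genes called higher, DESeq2 called 4374, the fit of all 8 libraries 6697, no filter 7704 and a mean of 50 counts 904. Against 1631 called lower, the GC and length offset gave 825, TMM from expressed genes 727 and a mean of 50 counts 761. Among expressed genes, with 438 higher and 1624 lower (21.2% of calls higher), the offset gave 275 and 822, TMM from expressed genes 849 and 724 (54.0%), a mean of 50 counts 774 and 761 (50.4%), no filter 329 and 2410, and Rn45s and Lars2 kept 610 and 1137 (34.9%). At a level of 500 counts 159 were higher and 1307 lower (10.8%). The median of expressed genes, −0.33, moved to −0.25 with the offset and with RLE factors, −0.19 with Rn45s and Lars2 kept, −0.03 with TMM from expressed genes, −0.24 with all 8 libraries, −0.06 at a mean of 50 counts, −0.50 without a filter, −0.38 without factors and −0.48 at 500 counts. Spearman's correlation of the log2 fold change with coding length, 0.59, was 0.24 with the offset, which models length, and 0.65 at 500 counts. With Rn45s and Lars2 in the totals, AGO2-IP shares were 0.293% for C/D box and 0.0857% for H/ACA box snoRNAs, 0.470% for RNase P and MRP RNA, 0.478% for long non-coding RNAs, 0.00857% for microRNA rows, 0.0172% for histones and 12.4% for other protein-coding genes.

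Leaving out 1 library gave between 425 and 2528 genes higher, 15 and 1835 lower, 56 and 1091 expressed genes higher, 15 and 1811 lower, a median from −0.35 to −0.13 and a correlation with coding length from 0.52 to 0.58. The lowest counts came without WT AGO2-IP A. Without WT AGO2-IP B 716 genes were higher and 82 lower, and without WT total RNA B 688 were lower. The highest counts came without WT total RNA A. The sources used here do not state whether the letters A and B pair the samples, and the deviations of like-lettered libraries correlated at 0.22 over genes. The replicate block called 2433 higher and 1731 lower, and 519 and 1722 expressed genes. The replicate block with the offset called 856 lower, 854 of them expressed, with a median of −0.24 and a correlation of 0.24.

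Of 93 called named genes none reversed and 45 kept their call in every fit. Most were named for extreme values in the main fit, so a reversal was unlikely from the start. Lost calls numbered 43 without WT AGO2-IP A, 31 without B, 5 without WT total RNA B and 15 with the offset. Uncalled genes changed sign. Rpl37 was 0.64 with the offset, 0.62 with block and offset, 0.08 with TMM from expressed genes, 0.05 at a mean of 50 counts, and between −0.64 and 0.34 without 1 library, above 0 without WT AGO2-IP A or WT total RNA B. Gapdh was 0.25 with the offset and 0.23 with block and offset. Without 1 library Gapdh lay between −0.58 and 0.17, the highest without WT total RNA B. Mgp was 0.07 and 0.29 in the fits with the offset. Without 1 library Mgp lay between −1.13 and 0.09, the highest without WT total RNA A. Flna was −0.08 and −0.07 in the fits with the offset. Col18a1 was between −0.81 and 0.92 without 1 library, the highest without WT total RNA B. The cause was not tested. The lower AGO2-IP totals limit genes with few counts.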
